A study of Homo sapiens with 16 samples.

Results

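The 10 genes described here encode ligands that B cells present to T cells and cytokines of the tumour necrosis factor (TNF) family. They are the costimulatory ligands and related surface proteins CD80, CD86, CD83 and ICOSLG, the checkpoint ligands CD274 and PDCD1LG2, and the TNF family members CD70, TNF, LTA and LTB. The genes were picked by symbol, and each symbol matched 1 of the 58051 Ensembl identifiers in the deposited expression table. All of them reached a mean normalized count of 10 over the libraries, the minimum for testing, but CD80, PDCD1LG2 and LTA did so only through their levels at medium MYC. RNA came from P493-6, an immortalised human B cell line with a MYC transgene that doxycycline switches off and with an EBNA2 protein, a transcription factor of Epstein-Barr virus, that works only while oestrogen is present. The cells grew in DMEM with 10% serum. High MYC cells had the plain medium, and medium MYC cells had it with 0.1 µg/mL doxycycline plus 1 µM β-estradiol, from 24 h before treatment. At each level, cells then spent 24 h with IMP1088 at 100 nM, which blocks the N-myristoyltransferases (NMTs), or with its solvent DMSO. The study's title puts the question of how NMT inhibition acts at different MYC levels. Each of the 4 groups held 4 libraries, all from the same line, and the additives that set the MYC level mean that the effects of MYC, doxycycline and estradiol (and with it EBNA2) cannot be told apart.

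CD80 and CD86 bind CD28, which promotes T cell activation, and CTLA4, which restrains it, while ICOSLG binds ICOS and CD70 binds CD27. CD274 (PD-L1) and PDCD1LG2 (PD-L2) bind the inhibitory receptor PD-1, and CD83 is a surface protein of mature dendritic cells and activated B cells. TNF and lymphotoxin alpha (LTA) form homotrimers that bind the TNF receptors, and LTA joins lymphotoxin beta (LTB) on the membrane in a complex that binds the lymphotoxin beta receptor. NMTs add myristate, a fatty acid, to the start of many proteins, among them Src family kinases that act downstream of the B cell receptor.

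The libraries held 8755296 to 13858534 reads on the identifiers, as recovered from the deposited values. The labels do not say whether the libraries of a group came from separate cultures, so p-values measure only the spread between these samples, which may be technical. MYC itself followed the labels, with a log2 difference of -5.04 (SE 0.04, limma adjusted p = 7.37e-27) for medium against high MYC in DMSO. MYC RNA also rose with IMP1088, with log2 changes of 0.59 (SE 0.04, limma adjusted p = 7.24e-10) at high and 0.53 (SE 0.04, limma adjusted p = 2.74e-09) at medium MYC, so the responses described were not measured at a fixed level of MYC RNA. All 10 B cell markers examined, among them CD79A and PAX5, had a mean normalized count of at least 10, and the B cell marker CR2 was listed at 0 in every library at high MYC. In bulk RNA, fewer cells that express a gene and less of its RNA per cell cannot be told apart.

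The genes lie on 5 chromosomes (GRCh38, GENCODE release 29), and those that sit side by side are of the same family. CD80 (ENSG00000121594, chr3:119524293-119559602, minus strand) and CD86 (ENSG00000114013, chr3:122055366-122121139, plus strand) are 2496 kb apart on chromosome 3. CD83 (ENSG00000112149, chr6:14117256-14136918, plus), ICOSLG (ENSG00000160223, chr21:44217014-44240966, minus) and CD70 (ENSG00000125726, chr19:6583183-6604103, minus) stand alone. CD274 (ENSG00000120217, chr9:5450503-5470566, plus) is followed by PDCD1LG2 (ENSG00000197646, chr9:5510570-5571254, plus) after a gap of 40.0 kb. LTA (ENSG00000226979, chr6:31572054-31574324, plus), TNF (ENSG00000232810, chr6:31575567-31578336, plus) and LTB (ENSG00000227507, chr6:31580525-31582522, minus) form a cluster, with gaps of 1.24 kb and 2.19 kb. All 10 are protein-coding.

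Since most of these genes moved together between the MYC levels, their promoters were searched for 4 short motifs. RefSeq (GRCh38.p14) gave 12 windows, each from 250 bases before to 50 after a transcription start, for 8 of the genes, and CD70 and PDCD1LG2 had none in the table. The motifs were CACGTG (the E-box that MYC binds), TGGGAA (bound by RBPJ, through which EBNA2 acts), GAAA repeated after a gap of 2 bases (bound by interferon regulatory factors) and the NF-kB consensus, on both strands. Over all 35116 RefSeq windows of this length, 7.26% held CACGTG, 24% TGGGAA, 3.57% the GAAA repeat and 11.3% the NF-kB consensus. None of the 12 windows held CACGTG, and 5 of them held no motif (CD80, ICOSLG, TNF, and the first windows of CD83 and CD86). The stretches with matches are shown for CD83, CD86, CD274, LTA and LTB, with the matched bases in capitals. The first 3 are the NF-kB matches of CD83 (chr6:14117628-14117657, chr6:14117687-14117716 and chr6:14117712-14117740, plus strand). CD86 (chr3:122077628-122077733, plus strand) shows TGGGAA, then an NF-kB match that shares its last bases with a TGGGAA on the other strand. CD274 (chr9:5450314-5450369, plus strand) shows a pair of overlapping GAAA repeats read on the other strand. LTA (chr6:31572176-31572204, plus strand) and LTB (chr6:31582482-31582531, minus strand) each show an NF-kB match.
CD83 first: ggcggggacgGGGGCGCCCCggcctaagcg
CD83 middle: ctgcccgccGGGGAATCCCCCgggctggcg
CD83 last: tggcgcgcaGGGAAGTTCCCgaacgcgcg
CD86: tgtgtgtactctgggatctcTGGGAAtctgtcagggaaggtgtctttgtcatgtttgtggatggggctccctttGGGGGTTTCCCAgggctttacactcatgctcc
CD274: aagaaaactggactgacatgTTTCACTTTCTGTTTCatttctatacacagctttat
LTA: ctaagccctGGGGGCTTCCCcgggcccca
LTB: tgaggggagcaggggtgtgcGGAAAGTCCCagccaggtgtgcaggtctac
The CD83 matches begin at -134, -76 and -51 relative to the start of its second window, where 1 is the first base transcribed. A second NF-kB match of LTB lies downstream of its start, and LTA has a TGGGAA match further upstream. A match of letters describes the sequence and shows nothing of whether a factor was bound in these cells.

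Without inhibitor, all 10 genes were higher at medium than at high MYC, and for each of them the 4 libraries at medium MYC lay above the 4 at high MYC. The ratio of mean normalized counts ran from 1.27 for CD70 to 107 for CD80. Calls were common in this comparison: 76.2% of the 13765 tested genes passed a limma adjusted p of 0.05, 38.9% of tested genes upward and 37.3% downward, and 69.2% had groups without overlap. The size of the differences was less common. Among the 10 genes 7 were called and at least 4-fold higher on the log2 scale, as were 5.16% of all genes tested, and the median log2 difference was 3.82 for the 10 genes and 0.02 for all tested. Of the 7, CD80, LTA and PDCD1LG2 reached the minimum for testing only through medium MYC. Their part in this count and in the median is therefore no independent support.

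**Figure D1:**
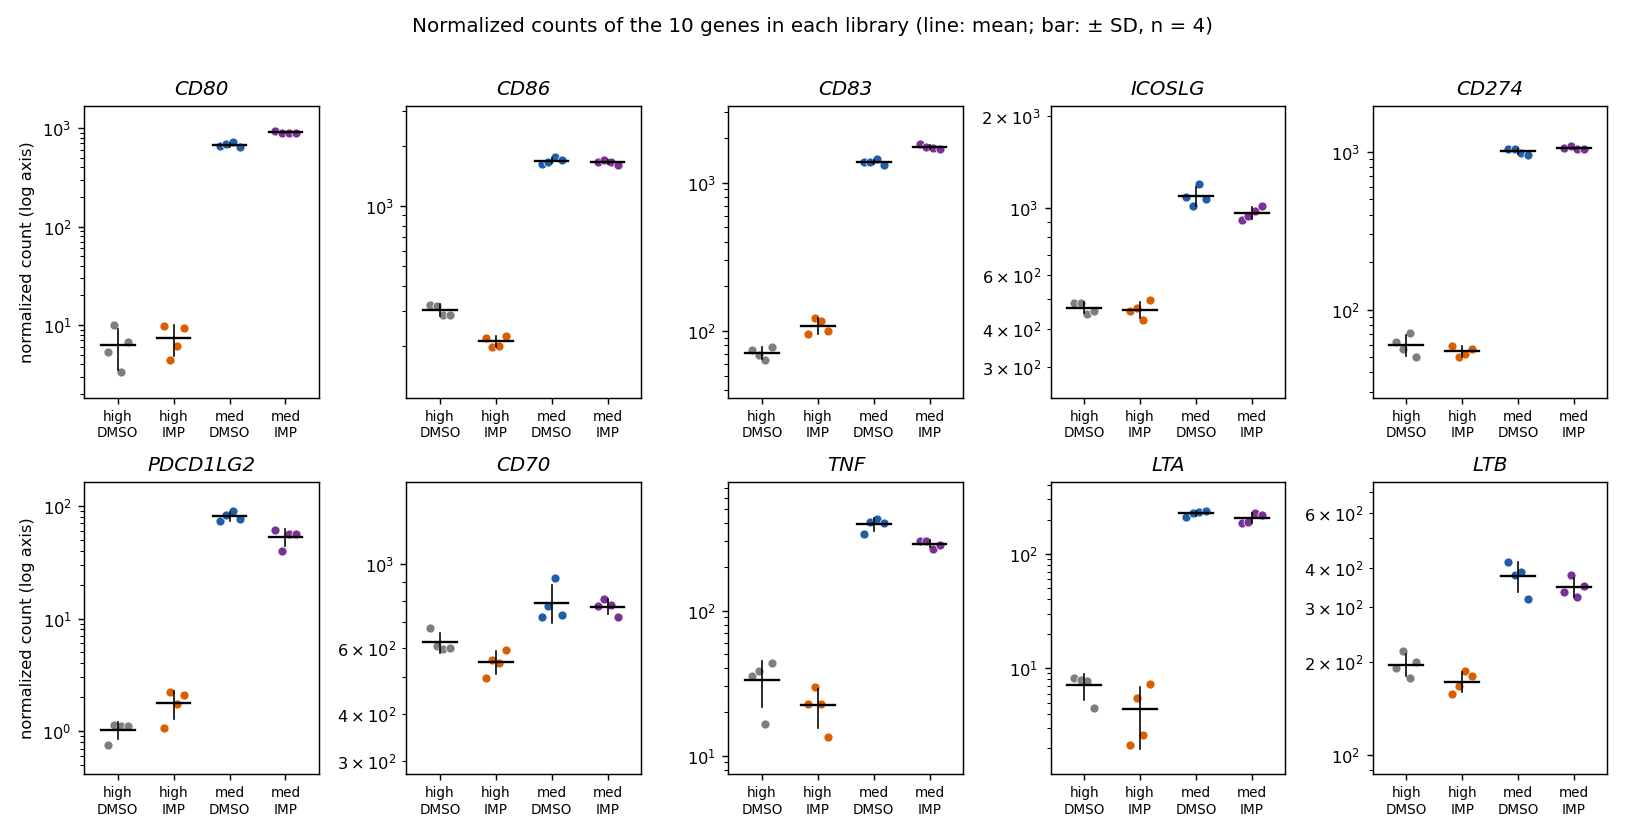
Normalized counts of the 10 genes in each of the 16 libraries, on a log axis whose range differs between panels. Points are libraries, horizontal lines group means and vertical bars SD (n = 4); in every panel both medium MYC groups lie above both high MYC groups, and the smallest step is that of CD70.

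CD80 showed the largest ratio of the B7 ligands. In DMSO its normalized counts were 5.27, 10.1, 3.31 and 6.71 at high MYC and 654, 690.0, 724 and 641 at medium MYC. At high MYC these values stood for 3 to 9 reads per library, so CD80 was close to undetected there and plainly expressed at medium MYC. The ratio of reads, scaled for library depth, was 109 with an exact 95% interval from 73.6 to 169 that covers counting error only. The log2 difference on the scale of log2(value + 1) was 6.61 (limma, SE 0.22, adjusted p = 3.73e-17), which understates the change of a gene with so few reads. CD80 exons overlap those of TIMMDC1, a gene of the other strand, over 798 bases. Whether the authors' counting was stranded is not given in the sources used here. TIMMDC1 itself differed by -0.30 (SE 0.06, limma adjusted p = 2.02e-04), opposite in sign to CD80.

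CD86, the other ligand of CD28 and CTLA4, was already well expressed at high MYC. Its normalized counts in DMSO were 322, 318, 285 and 285 at high MYC and 1635, 1675, 1767 and 1706 at medium MYC, with little spread in either group and a 5.61-fold ratio of means. The log2 difference was 2.49 (limma, SE 0.05, adjusted p = 1.00e-20). The level of CD80 per kb of exon was 2.23% ± 0.94 (SD, n = 4) of that of CD86 at high MYC in DMSO and 42.8% ± 1.78 (SD, n = 4) at medium MYC.

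CD83 rose 19.3-fold in the ratio of means. In DMSO its normalized counts were 74.6, 68.5, 64.0 and 78.2 at high MYC and 1379, 1371, 1441 and 1323 at medium MYC, with replicates close together in both groups. The log2 difference was 4.26 (limma, SE 0.07, adjusted p = 8.28e-22). ICOSLG, the ligand of ICOS, had 486, 489, 448 and 459 at high MYC and 1089, 1017, 1202 and 1068 at medium MYC. That was a smaller step, 2.33-fold, between groups that again did not overlap, with a log2 difference of 1.21 (limma, SE 0.05, adjusted p = 7.35e-15). ICOSLG shares 39.4% of its 31-base words with other genes, most of it (34.4%) with 1 gene (ENSG00000277117), and reads of the shared part may be split between these 2. With the counts of both summed, a check added after the data were seen, the log2 difference was 1.22 and the call stayed.

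Both PD-1 ligands were far higher at medium MYC. CD274 had normalized counts of 62.5, 56.2, 70.6 and 50.3 at high MYC and 1043, 1041, 977 and 960.1 at medium MYC in DMSO, a 16.8-fold ratio of means. Its log2 difference was 4.06 (limma, SE 0.08, adjusted p = 8.12e-21). PDCD1LG2 was at the detection floor at high MYC, with 1 read in each of the 4 DMSO libraries (normalized counts 0.753, 1.12, 1.10 and 1.12). At medium MYC its normalized counts were 74.1, 83.0, 90.1 and 77.1, from 71 to 103 reads per library. The depth-scaled ratio of 365 reads to 4 was 81.7, with an exact 95% counting interval from 31.6 to 302, and the log2 difference was 5.34 (limma, SE 0.23, adjusted p = 4.34e-15). With so few reads at high MYC its size depends on the setting, from 3.04 with a pseudocount of 10 to 6.35 with DESeq2, and the call held in all.

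Of the TNF family, LTA and TNF differed strongly and LTB and CD70 little. LTA, the soluble lymphotoxin, had normalized counts of 8.28, 7.86, 7.73 and 4.47 at high MYC, or 4 to 11 reads, and 212, 228, 234 and 236 at medium MYC. Its depth-scaled ratio was 31.6, with an exact 95% counting interval from 21.9 to 47.4, and its log2 difference was 4.85 (limma, SE 0.24, adjusted p = 5.92e-14), which ran from 3.80 with a pseudocount of 10 to 4.98 with DESeq2. TNF had 35.4, 38.2, 16.6 and 43.6 at high MYC and 338, 408, 425 and 399 at medium MYC, so the high MYC libraries varied more among themselves but stayed far below the others. The log2 difference of TNF was 3.59 (limma, SE 0.22, adjusted p = 2.65e-12), an 11.7-fold ratio of means. LTB, the membrane anchor of the lymphotoxin complex, had 191, 216, 178 and 199 at high MYC and 419, 380.1, 388 and 318 at medium MYC. This was a 1.92-fold ratio of means and a log2 difference of 0.94 (limma, SE 0.08, adjusted p = 1.16e-09). CD70, the ligand of CD27, had the highest level per length of the set at high MYC and the smallest step. Its normalized counts were 676, 606, 595 and 600.2 at high MYC and 726, 777, 919.8 and 733 at medium MYC, groups that were close but did not overlap, with a log2 difference of 0.34 (limma, SE 0.07, adjusted p = 8.96e-05).

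Under IMP1088 the same 10 genes were higher at medium MYC, again without overlap between the groups, where 77.5% of genes tested were called, 39.7% of tested genes upward and 37.8% downward, and 72.6% had groups without overlap. Again 7 of the 10 were called and at least 4-fold higher, as were 5.67% of all tested genes. The 7 again included CD80, LTA and PDCD1LG2, which were tested only through their levels at medium MYC. Ratios of means ran from 1.41 for CD70 to 122 for CD80. The log2 differences under IMP1088 were larger than in DMSO for CD86, at 2.98 (SE 0.05) against 2.49 (SE 0.05), and smaller for PDCD1LG2, at 4.29 (SE 0.23) against 5.34 (SE 0.23). Those are the genes for which the test of that difference passed, as described further on. For PDCD1LG2 the depth-scaled ratio of 202 reads to 7 was 29.8, with an exact 95% counting interval from 14.2 to 75.1 that overlaps the interval in DMSO.

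**Figure D2:**
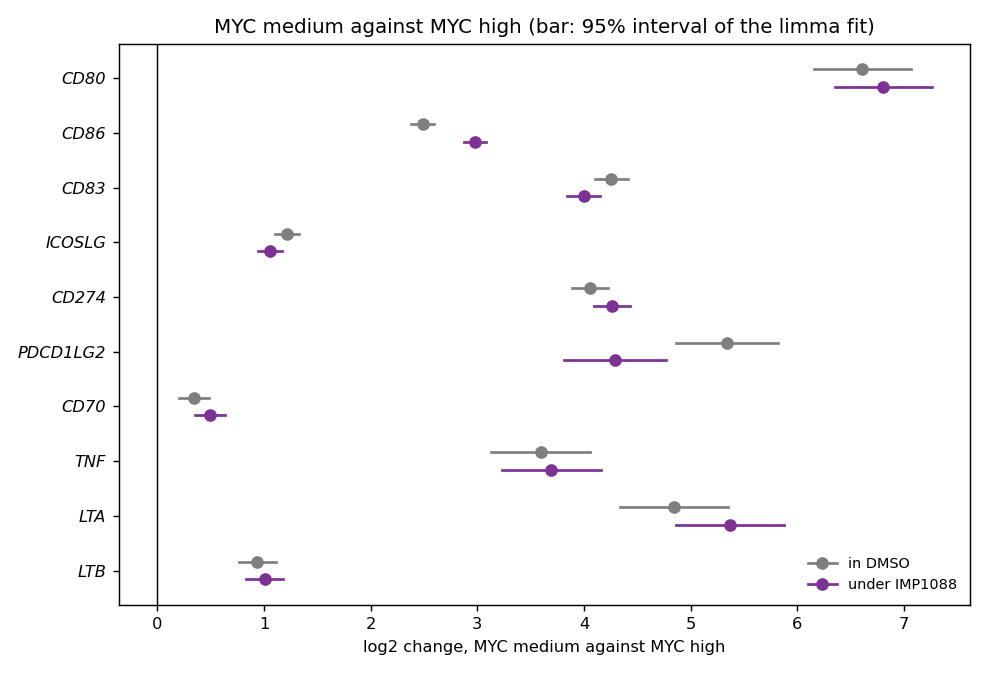
Log2 difference of each gene between medium and high MYC, in DMSO (grey) and under IMP1088 (purple), with 95% intervals of the limma fit. All points lie above 0, from 0.34 for CD70 to 6.81 for CD80, and the pairs stand furthest apart for CD86, LTA and PDCD1LG2.

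The levels were put in order within each group as normalized count per kb of merged exon, which allows genes of unequal length to be compared. At high MYC in DMSO the order was CD70 (404), LTB (127), CD86 (88.1), ICOSLG (50.4), CD83 (28.4), TNF (19.9), CD274 (14.6), LTA (4.08), CD80 (1.98) and PDCD1LG2 (0.433). Neighbours whose libraries overlapped there, and whose order is therefore not resolved, were CD83 with TNF, TNF with CD274, and LTA with CD80. At medium MYC in DMSO the order was CD83 (548), CD70 (515), CD86 (494), LTB (245), CD274 (245), TNF (234), CD80 (212), LTA (131), ICOSLG (117) and PDCD1LG2 (34.3). CD83, CD70 and CD86 overlapped as neighbours at the top, LTB, CD274, TNF and CD80 in the middle, and LTA with ICOSLG. ICOSLG stood above CD83 at high MYC and below LTA, though not resolved from it, at medium MYC. PDCD1LG2 was the lowest of the 10 in all 4 groups, with no library overlapping those of the next gene. Under IMP1088 at medium MYC, CD83 (691) stood alone at the top without overlap with CD70 (503), and CD80 (282) came after CD86 (484) and above CD274 (258).

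The response to IMP1088 was far smaller than the difference between the MYC levels, and few of the 10 genes passed the test. At high MYC, CD83 rose and CD86 and LTA fell, which is 3 of 10 genes where 26.8% of all tested genes were called, 10.5% upward and 16.3% downward. At medium MYC, CD83 rose and ICOSLG fell, which is 2 of 10 where 26.3% of all tested genes were called, 11.7% upward and 14.6% downward. These shares are near the background. The median log2 change was -0.15 at high MYC and -0.07 at medium MYC for the 10 genes, and -0.02 and -0.01 for all tested.

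**Figure D3:**
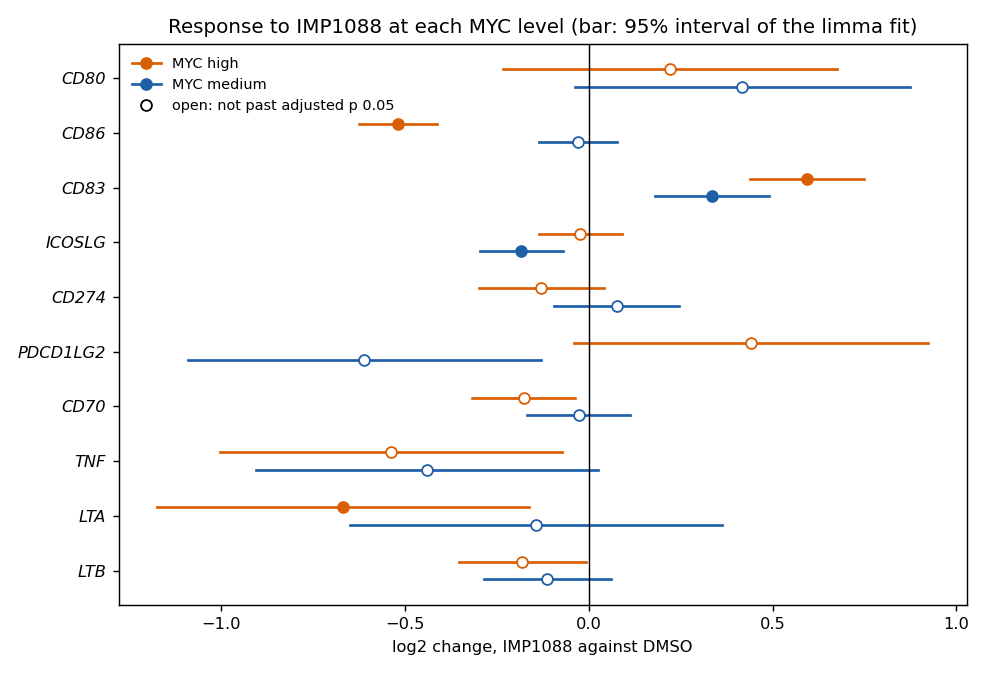
Log2 change of each gene with IMP1088 against DMSO at high (orange) and medium MYC (blue), with 95% intervals of the limma fit; filled points passed the adjusted p of 0.05. CD83 lies to the right of 0 at both levels, CD86 is a filled point left of 0 at high MYC and an open one near 0 at medium MYC, and the intervals of CD80, PDCD1LG2, TNF and LTA are the widest.

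CD83 was the one gene called at both MYC levels. Under IMP1088 its normalized counts were 94.6, 123, 116 and 99.8 at high MYC, each above all 4 DMSO libraries, and 1827, 1739, 1700.4 and 1689 at medium MYC, again each above all 4 DMSO libraries. Its mean was 52.0% higher than in DMSO at high MYC and 26.1% higher at medium MYC. The log2 changes were 0.59 (limma, SE 0.07, adjusted p = 3.10e-06) and 0.33 (limma, SE 0.07, adjusted p = 0.00161). The difference between these responses was 0.26 (95% interval 0.04 to 0.48, limma adjusted p = 0.145), which did not pass the test. Both calls held in all other settings and with each library left out in turn.

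CD86 fell with IMP1088 at high MYC. Its normalized counts were 219, 199, 199.8 and 225 under IMP1088, each below every DMSO library, a mean 30.3% lower at a log2 change of -0.52 (limma, SE 0.05, adjusted p = 1.04e-07). At medium MYC the counts were 1672, 1706, 1663 and 1607, which overlapped those in DMSO, and the log2 change of -0.03 (95% interval -0.13 to 0.08, limma adjusted p = 0.732) did not pass. The difference between the responses, high minus medium, was -0.49 (limma, SE 0.07, adjusted p = 8.54e-05). In that test 8.63% of all genes were called, 3.31% upward and 5.33% downward, and among the 10 genes CD86 and PDCD1LG2 were. The call for CD86 held in every other setting, its log2 difference staying between -0.52 and -0.46. Of the 10 B cell markers, 7 fell at high MYC and 5 at medium MYC, and none rose at either level. Of all tested genes 16.3% fell and 10.5% rose at high MYC, and 14.6% fell and 11.7% rose at medium MYC. CD22 and FCER2 fell at high MYC with log2 changes of -0.61 (limma adjusted p = 5.21e-12) and -0.76 (limma adjusted p = 1.00e-10) and at medium MYC with changes of -0.33 (limma adjusted p = 3.10e-08) and -0.26 (limma adjusted p = 1.84e-04). CD37 and CD79B gave no call at either level, with log2 changes at high MYC of 0.04 and -0.02. The summed level of the 10 B cell markers was 26583 to 26988 in DMSO and 21616 to 22679 under IMP1088 at high MYC, and 45609 to 47135 and 40444 to 41555 at medium MYC, where CD86 gave no call. Its part in the result for CD86 was not tested.

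CD80, the other ligand of CD28, had normalized counts of 9.68, 4.44, 6.11 and 9.36 under IMP1088 at high MYC, which overlapped the DMSO libraries. At medium MYC its counts were 932, 886, 902 and 895, each above all 4 DMSO libraries, and the mean was 33.5% higher. The log2 change at medium MYC was 0.42 (limma, SE 0.22, adjusted p = 0.175), not a call in the fit over all 16 libraries. That fit shares one spread over the groups, and CD80 varied much more at high MYC (SD 0.52 on the log2 scale within groups) than at medium MYC (0.06). With only the medium MYC groups in the fit the limma adjusted p was 5.23e-06, and edgeR's quasi-likelihood test and DESeq2 on recovered reads gave adjusted p = 1.18e-06 and 2.18e-10. The level of CD80 per kb at medium MYC was 58.4% ± 1.91 (SD, n = 4) of that of CD86 under IMP1088, where it had been 42.8% in DMSO. The difference between the CD80 responses at the MYC levels was -0.20 (95% interval -0.84 to 0.45, limma adjusted p = 0.787), an interval that spans 0.

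ICOSLG had normalized counts of 458, 470.3, 428 and 497 under IMP1088 at high MYC, overlapping DMSO, with a log2 change of -0.02 (95% interval -0.14 to 0.09). At medium MYC it had 911, 942, 979.7 and 1016, each below the 4 DMSO libraries by a small margin, and fell by a mean of 12.0% at a log2 change of -0.18 (limma, SE 0.05, adjusted p = 0.0145). The call was lost with quantile normalization (limma adjusted p = 0.0597), without replicate 3 of medium MYC DMSO (0.0626) and without replicate 1 of medium MYC IMP1088 (0.0553). Summed with the gene that shares part of its sequence, ICOSLG had a log2 change of -0.21 (limma adjusted p = 0.0134). The difference between the responses at the MYC levels was 0.16 (limma adjusted p = 0.229), so ICOSLG was not shown to respond at medium MYC alone.

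The PD-1 ligands gave no call at either level. CD274 had normalized counts of 59.1, 49.9, 52.4 and 56.1 under IMP1088 at high MYC and 1052, 1085, 1049.7 and 1049 at medium MYC. At high MYC these overlapped DMSO, and at medium MYC all 4 lay narrowly above, with a log2 change of 0.08 (95% interval -0.09 to 0.25, limma adjusted p = 0.548). PDCD1LG2 had 1.08, 2.22, 1.75 and 2.08 at high MYC, from 1 or 2 reads per library, which is too few for a change to be detectable. At medium MYC it had 60.6, 39.7, 56.4 and 56.5, each below the 4 DMSO libraries, a mean 34.3% lower. The log2 change of PDCD1LG2 at medium MYC was -0.61 (limma, SE 0.23, adjusted p = 0.0565), and in the fit of the medium MYC groups alone the limma adjusted p was 0.00446, with 0.00253 from edgeR and 0.0102 from DESeq2. Its difference between the responses, high minus medium, was 1.05 (limma, SE 0.33, adjusted p = 0.0490). That call rests on 4 and 7 reads in the high MYC groups and was lost with edgeR (adjusted p = 0.354) and DESeq2 (0.463). It was also lost in 15 of the 16 limma fits that each left out 1 library, the exception being the fit without replicate 1 of high MYC IMP1088 (adjusted p = 0.0231).

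In the TNF family, TNF, LTA, LTB and CD70 all had lower means with IMP1088 than in DMSO at both MYC levels. Of these changes only that of LTA at high MYC passed the test in the fit of all 16 libraries. The median log2 change of all tested genes was -0.02 at high and -0.01 at medium MYC. TNF did not pass the test at either level in the fit of all 16 libraries. Its normalized counts under IMP1088 were 22.6, 29.9, 22.7 and 13.5 at high MYC, overlapping DMSO, and 301, 302, 267 and 284 at medium MYC, each below the 4 DMSO libraries. The mean was 33.6% lower at high MYC and 26.5% lower at medium MYC, with log2 changes of -0.54 (limma, SE 0.22, adjusted p = 0.0814) and -0.44 (limma, SE 0.22, adjusted p = 0.162). Within groups TNF had an SD of 0.54 on the log2 scale at high MYC and 0.12 at medium MYC. With only the medium MYC groups in the fit the limma adjusted p was 2.95e-04, edgeR gave 0.00133 and DESeq2 9.94e-05. At high MYC replicate 3 was the lowest DMSO library, at 16.6, and without it the limma adjusted p was 0.00102 at high MYC and 0.0445 at medium MYC. At high MYC DESeq2 also passed (adjusted p = 0.0283), as did limma without replicate 2 of high MYC IMP1088 (0.0333), whereas edgeR did not (0.0800). The difference between the TNF responses was -0.10 (95% interval -0.76 to 0.56, limma adjusted p = 0.907).

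LTA fell at high MYC by the test, but from very few reads. Its normalized counts under IMP1088 were 2.15, 5.55, 2.62 and 7.28 at high MYC, from 2 to 7 reads, and replicates 2 and 4 lay within the range in DMSO. The log2 change was -0.67 (limma, SE 0.24, adjusted p = 0.0467). The call was lost in 8 of the 10 other settings, among them edgeR (adjusted p = 0.206) and DESeq2 (0.253), and held in 3 of the 16 limma fits that each left out 1 library. At medium MYC, with 160 to 220 reads in each IMP1088 library, LTA had 186, 189.7, 229.8 and 219, which overlapped DMSO, and a log2 change of -0.14 (95% interval -0.65 to 0.36, limma adjusted p = 0.719). LTB had 157, 166, 187 and 179.8 at high MYC and 336, 378, 324 and 349.9 at medium MYC under IMP1088, overlapping DMSO at both levels. Its log2 changes were -0.18 (limma adjusted p = 0.117) and -0.11 (0.357). CD70 had 498, 556, 546 and 593 at high MYC, each below the 4 DMSO libraries by a small margin, at a log2 change of -0.18 (limma, SE 0.07, adjusted p = 0.0555). At medium MYC its counts of 772, 808, 781 and 723 overlapped DMSO, at a log2 change of -0.03 (95% interval -0.17 to 0.11, limma adjusted p = 0.815). CD70 at high MYC passed the test without replicate 4 of high MYC IMP1088 and without replicate 3 of medium MYC DMSO.

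Groups without overlap can be counted whatever the shared spread. At high MYC, 3 of the 10 genes had IMP1088 and DMSO libraries without overlap (CD83, CD86 and CD70), where 26.7% of all tested genes did. At medium MYC, 6 of the 10 did (CD83, CD80 and CD274 higher, ICOSLG, PDCD1LG2 and TNF lower), where 27.9% of all tested genes did. CD83 was the one gene in both lists. The responses at the MYC levels share no libraries, whereas the comparisons of MYC levels share theirs with both.

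The neighbours of LTA, TNF, CD274 and PDCD1LG2 had smaller differences between the MYC levels than these 4 genes. On chromosome 6, in DMSO, the log2 difference was 0.89 for NFKBIL1 just before the cluster, 4.85, 3.59 and 0.94 for LTA, TNF and LTB, 2.07 for LST1, 2.37 for NCR3 and 0.02 for AIF1 beyond it. LTB, which is read from the opposite strand, stood closer to NFKBIL1 than to LTA and TNF. On chromosome 9 it was 0.90 for PLGRKT, 4.06 and 5.34 for CD274 and PDCD1LG2, 0.33 for RIC1 and -0.74 for ERMP1. With IMP1088, PLGRKT fell at both levels, by log2 changes of -0.54 (limma adjusted p = 0.00134) and -0.35 (0.0295), whereas CD274 beside it gave no call. NCR3 fell at high MYC (-1.15, limma adjusted p = 0.00426) and AIF1 at medium MYC (-0.53, limma adjusted p = 1.64e-04).

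**Figure D4:**
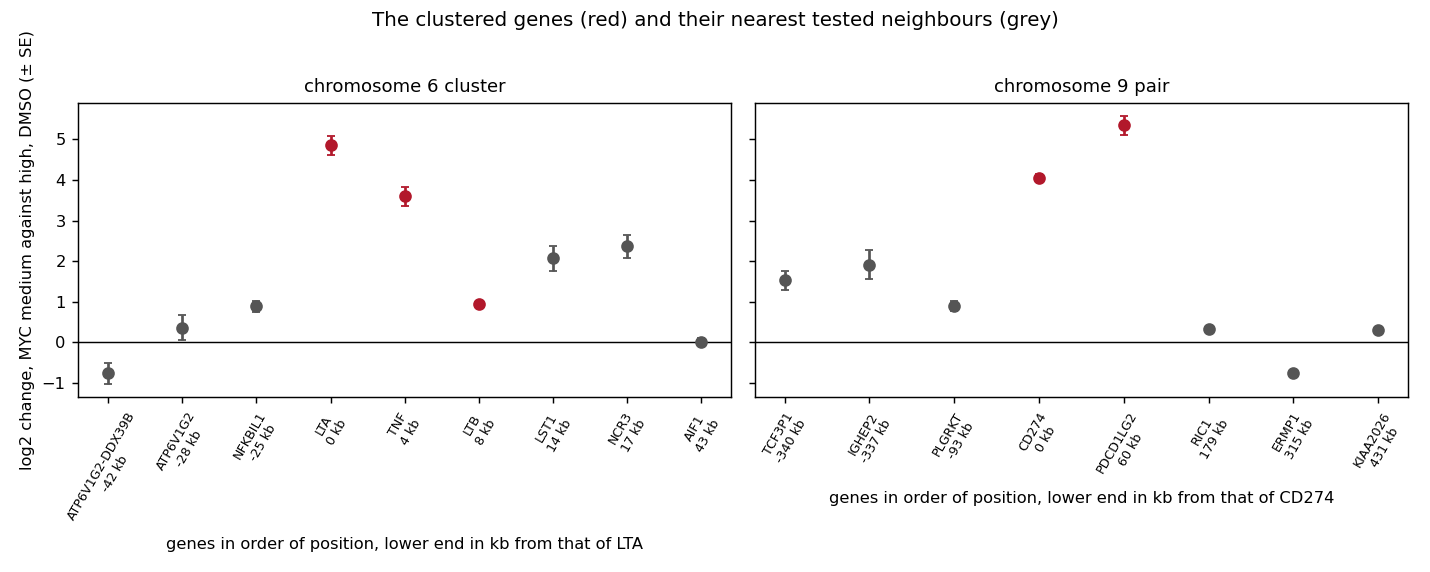
Log2 difference between medium and high MYC in DMSO (± SE of the limma fit) for the chromosome 6 cluster and the chromosome 9 pair (red) and their nearest tested neighbours (grey), in order of position. LTA, TNF, CD274 and PDCD1LG2 stand above every neighbour drawn, and LTB does not.

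The receptors of these ligands were partly present in the same cells. Of 9 receptors listed, 6 were tested, and 4 were higher and 2 lower at medium MYC in DMSO, a comparison in which 38.9% of all tested genes were called higher and 37.3% lower. CTLA4 was listed at 0 in all libraries, and CD28 and LTBR at no more than 1 read. ICOS was listed at 0 at high MYC and had a mean normalized count of 19.8 ± 4.63 (SD, n = 4) at medium MYC in DMSO. It reached the minimum for testing only through medium MYC. CD27, the receptor of CD70, was 213 ± 20.8 (SD, n = 4) in DMSO and 291 ± 15.1 (SD, n = 4) under IMP1088 at high MYC, and 177 ± 16.3 (SD, n = 4) and 179 ± 10.9 (SD, n = 4) at medium MYC. It rose at high MYC with a log2 change of 0.45 (limma, SE 0.08, adjusted p = 2.10e-04), and the difference between the responses was 0.43 (limma, SE 0.11, adjusted p = 0.0188). TNFRSF1B, the second TNF receptor, fell at both levels, by log2 changes of -0.27 (limma adjusted p = 2.52e-05) and -0.14 (limma adjusted p = 0.0106). TNFRSF14, which binds BTLA and TNFSF14, differed by 2.60 (limma, SE 0.07, adjusted p = 3.70e-19) between medium and high MYC and had a log2 change with IMP1088 at high MYC of -0.21 (limma, SE 0.07, adjusted p = 0.0200).

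Counts for other ligands of the same families stand against the shares of all tested genes, which at medium against high MYC in DMSO were 38.9% higher and 37.3% lower, with a median log2 difference of 0.02. With IMP1088 these shares were 10.5% higher and 16.3% lower at high MYC, and 11.7% and 14.6% at medium MYC. Of 12 other B7 and butyrophilin genes 9 were tested, and in DMSO 5 were higher and 1 lower at medium MYC, with a median log2 difference of 0.20. CD276 (0.279 at high and 33.6 at medium MYC in DMSO) reached the minimum for testing only through medium MYC. With IMP1088, 0 rose and 2 fell at high MYC, and 1 rose and 2 fell at medium MYC. VSIR, which encodes the checkpoint protein VISTA, differed by 2.11 (limma, SE 0.13, adjusted p = 2.09e-12) between the MYC levels and fell with IMP1088 at both, with log2 changes of -0.55 (limma, SE 0.13, adjusted p = 0.00270) and -0.49 (limma, SE 0.13, adjusted p = 0.00640). BTNL9 fell at both levels as well, with log2 changes of -0.23 (limma adjusted p = 0.0233) and -0.53 (limma adjusted p = 1.37e-05), and BTN3A3 rose by the test at medium MYC, the log2 change being 0.22 (limma, SE 0.07, adjusted p = 0.0267). Of 14 other TNF superfamily ligands 5 were tested, all of them higher at medium MYC in DMSO, with a median log2 difference of 1.46. TNFSF4 (mean normalized counts of 7.27 at high and 359 at medium MYC in DMSO) and TNFSF13 (5.70 and 31.8) reached the minimum for testing only through medium MYC. TNFSF8 went the other way (11.1 and 2.83) but lay below the minimum, so the count does not describe the whole family. TNFSF10 (TRAIL) differed by 1.46 and TNFSF9 (4-1BB ligand) by 0.88. TNFSF14 (LIGHT), a further ligand of LTBR and TNFRSF14, fell with IMP1088 at both levels, with log2 changes of -0.25 (limma, SE 0.07, adjusted p = 0.0138) at high and -0.58 (limma, SE 0.07, adjusted p = 2.32e-06) at medium MYC. Its difference between the responses was 0.34 (limma, SE 0.10, adjusted p = 0.0423), opposite in sign to that of CD86.

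Of 16 further costimulatory or adhesion molecules of B cells 14 were tested, and in DMSO 11 were higher and 3 lower at medium MYC. In that comparison 38.9% of all tested genes were called higher and 37.3% lower. CD200 and TNFRSF9 reached the minimum for testing only through medium MYC, so their part in the count of higher genes is no independent support. With IMP1088, 2 rose and 7 fell at high MYC, where 10.5% of all tested genes rose and 16.3% fell, and 3 rose and 3 fell at medium MYC, where 11.7% and 14.6% did. BTLA, an inhibitory receptor that binds TNFRSF14, fell at high MYC. Its mean normalized count was 141 ± 9.63 (SD, n = 4) in DMSO and 70.3 ± 9.17 (SD, n = 4) under IMP1088 at high MYC, which passed the test (limma adjusted p = 8.08e-09), and 479 ± 8.24 (SD, n = 4) and 452 ± 30.6 (SD, n = 4) at medium MYC, where the change did not pass (limma adjusted p = 0.480). The difference between the responses was -0.91 (limma, SE 0.12, adjusted p = 1.50e-05). LGALS9, which encodes galectin-9, fell at both levels with log2 changes of -0.29 (limma adjusted p = 1.12e-05) and -0.26 (limma adjusted p = 4.41e-05), and so did TNFRSF13B, the receptor TACI, with -0.32 (limma adjusted p = 4.25e-06) and -0.16 (limma adjusted p = 0.00489).

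The messages of TNF and other cytokines are degraded through RNA-binding proteins that recognise elements in their 3' ends, and surface ligands such as CD274 and CD86 are controlled after translation. Of 16 genes of such handling 14 were tested, and 3 rose and 3 fell with IMP1088 at high MYC and 5 rose and 4 fell at medium MYC, beside 26.8% and 26.3% of all tested genes called. ZC3H12A, which encodes the RNase Regnase-1, rose at high MYC with a log2 change of 0.38 (limma, SE 0.07, adjusted p = 2.04e-04) and fell at medium MYC with one of -0.21 (limma, SE 0.07, adjusted p = 0.0216), with a difference between the responses of 0.59 (limma, SE 0.10, adjusted p = 2.27e-04). RC3H1, which encodes Roquin-1, rose at both levels, with log2 changes of 0.27 (limma adjusted p = 2.80e-05) and 0.13 (limma adjusted p = 0.0218). ZFP36L1, which encodes a protein that binds AU-rich elements, fell at both levels, with log2 changes of -0.46 (limma adjusted p = 5.09e-09) and -0.17 (limma adjusted p = 0.00100). Its log2 difference between medium and high MYC in DMSO was 2.61 (limma, SE 0.04, adjusted p = 2.89e-23).

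CD80, CD86, CD83, CD274 and PDCD1LG2 are also genes of dendritic cells, so markers of other cell types were read beside them. Of 10 dendritic cell markers, 5 had a mean normalized count of at least 10, of which LAMP3, ZBTB46 and LILRA4 did so only through medium MYC. Summed over all 10 markers, as for the other cell types, the level was 88.1 to 105 at high MYC and 529 to 561 at medium MYC in DMSO. CLEC4C made up most of the sum at high MYC and went the other way, at 72.4 ± 10.96 at high and 10.4 ± 2.98 at medium MYC (SD, n = 4). LAMP3 (0.652 ± 0.771 at high and 217 ± 12.8 at medium MYC, SD, n = 4) and ZBTB46 (0.560 ± 0.647 and 221 ± 12.8) made up most of it at medium MYC. CLEC9A and CLEC10A were listed at 0 in all 16 libraries and XCR1 and FCER1A had at most 3 reads. Of the T cell markers 4 of 10 reached the mean of 10 (CD3E, CD3G, TRAC and TRBC2). Their list had summed levels of 131 to 151 at high and 257 to 330 at medium MYC in DMSO. CD3D, CD247, CD8A and CD5 had at most 3 reads in any library. Of the myeloid markers 3 of 10 reached the mean of 10 (LYZ, ITGAM and CD68), at 139 to 162 and 360 to 394, with FCN1 listed at 0. NK cell markers reached it in 2 of 10 cases (PRF1, and NKG7 only through medium MYC), at 22.5 to 26.5 and 57.4 to 76.2, with NCAM1 and NCR1 listed at 0. All 10 plasma cell markers reached it, with summed levels of 15868 to 17298 at high and 13526 to 14214 at medium MYC in DMSO. In DMSO 8 of them were called lower and 2 higher at medium MYC, beside 37.3% and 38.9% of all tested genes. The part of these marker genes in the differences between the MYC levels was not tested.

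For each of the 10 genes, the nearest profiles over 3 log2 differences were looked up (IMP1088 at high MYC, IMP1088 at medium MYC, and medium against high MYC in DMSO, each from the 16 libraries). Likeness was the root mean square distance between these values among all tested genes with a symbol. The distance was not scaled to the size of the differences, so it does not rank the 10 genes by how alike their matches are. CD70, whose differences were small, had the smallest distance, 0.0062 to STMN1, and ICOSLG had TESC at 0.024. TNF was nearest to OAS3 at 0.059. CD83 was nearest to CX3CL1 at 0.059, CD274 to DOC2B at 0.080 and CD86 to ZNRF1 at 0.085. LTB had CRTC2 at 0.022, LTA had MYBPC1 at 0.13, PDCD1LG2 had SLC1A2 at 0.13 and CD80 had SYPL2 at 0.13. CX3CL1, DOC2B, MYBPC1 and SLC1A2 had mean normalized counts of only 11.1, 10.2, 18.7 and 17.6 over all libraries. With log2 level differences of 4.29, 4.16, 4.71 and 5.34, they had few reads at high MYC, where their IMP1088 changes are uncertain. The same holds for SYPL2 (53.1 and 6.64).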

How the data were processed

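The authors' deposited table gives 1 normalized expression signal per gene and library: gene counts divided by a size factor per library, as whole-read steps in the values show. Per the submitters' processing notes, STAR 2.5.2a, RSEM 1.2.31, DESeq2 1.16.1 and GRCh38 were used; their roles, the annotation and the strand setting are not given in the sources used here. Per the labels' protocols, RNA was extracted with a QIAGEN miRNeasy kit, made into cDNA with Nugen reagents and sequenced on an Illumina HiSeq.

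The genes, lists and tests were chosen with earlier results of these data known. Genes with a mean normalized count of at least 10 (13765 of 58051) were tested with limma 3.58.1 (R 4.3.3, trend) on log2(value + 1), as 4 group means in 1 fit of 16 libraries, two-sided, with Benjamini-Hochberg adjustment over all tested genes. Beyond the 10 genes, the rule named up to 3 genes per list with the smallest limma p for IMP1088 or its difference. It also named the nearest neighbours and the 2 nearest profiles per gene, of which only the first profile is given. Receptors and markers at 0, ICOS, LAMP3, ZBTB46, LILRA4, CD200 and TNFRSF9 were named after their values were seen. So were the T cell, myeloid and NK cell markers that reached a mean of 10. Whole reads were recovered from the values (100% of values above 0 were whole within 1e-06) and tested with edgeR 4.0.16 and DESeq2 1.42.0 as alternatives. Other alternatives were pseudocounts of 0.5 and 10, no filter or a minimum of 50, libraries rescaled to equal totals, quantile normalization, a replicate block, fits of only the groups compared and each library left out. Levels per kb used merged exons of GENCODE 29. On simulated counts of 13701 genes for IMP1088 against DMSO at high MYC, the fit recovered 66.7% of genes changed by 0.5 on the log2 scale and 89.8% of those changed by 1, and for the difference between responses 46.4% and 79.7%. Every simulated gene had the same spread beyond counting error. The rates can be too high for genes that vary more, such as CD80, LTA and TNF. Their SD within groups at high MYC was 0.52, 0.54 and 0.54 on the log2 scale.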

Additional observations from a re-analysis of the deposited data

Results flagged for a closer look

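Differences between the responses to IMP1088 at high and at medium MYC passed the limma test for CD86, at -0.49 on the log2 scale, and for PDCD1LG2, at 1.05, the second from 1 or 2 reads per library at high MYC. In 4 groups of 4 libraries, 1 library stood apart from the others by Dixon's criterion at the 95% level (its gap to the nearest library, as a share of the group's range). They were CD274 in replicate 2 of medium MYC IMP1088, the highest at a normalized count of 1085, and CD70 in replicate 1 of high MYC DMSO, the highest at 676. LTA in replicate 4 of high MYC DMSO was the lowest at 4.47, from 4 reads. PDCD1LG2 in replicate 1 of high MYC DMSO was the lowest at 0.753, although each library of that group held 1 read and only the depth differed. Chance alone gives about 1 such case in 20 groups, and 40 groups were examined.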

How the results depend on the processing

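All 10 genes were called higher at medium MYC in both comparisons under every alternative (9 of the 9 tested with a minimum of 50). At high MYC 2 to 4 genes were called with IMP1088, main count 3. At medium MYC the count of 2 became 4 with a pseudocount of 10 and 5 with edgeR, with DESeq2 and with only the groups compared, and ran from 1 to 3 with 1 library left out. For the difference between responses the count of 2 became 1 with a pseudocount of 0.5, with no filter, with a minimum of 50 (PDCD1LG2 then not tested), with equal totals, with edgeR, with DESeq2 and with the replicate block, and was 1 or 2 with 1 library left out. Same-numbered DMSO and IMP1088 libraries of a MYC level did not deviate together over all tested genes (correlations from -0.154 to 0.0494). This check gives genes with few reads the same weight as others and cannot exclude that the libraries are paired. The replicate block left 2 genes called at high MYC and 1 for the difference. Over all genes, quantile normalization called 1727 of 3497 genes higher at high MYC, against 1442 of 3689. Log2 values that changed sign, none of them called, were CD86 at medium MYC (0.0083) and ICOSLG at high MYC (0.023) with quantile normalization, CD70 at medium MYC with equal totals (8.5e-04) and quantile normalization (0.0030), and the TNF difference with a pseudocount of 10 (0.018). With 1 library left out, sign changes gave ranges of -0.0075 to 0.45 (CD80, high MYC), -0.43 to 0.030 (CD80, difference), -0.057 to 0.014 (ICOSLG, high MYC), -0.065 to 0.049 (CD70, medium MYC), -0.12 to 0.0096 (LTB, difference) and -0.40 to 0.11 (TNF, difference). Of 500 values under other settings 466 kept direction and call, 15 lost a call and 14 gained one; of 800 with a library left out 756, 30 and 6 did. The causes were not tested. Few reads limit the precision for CD80, PDCD1LG2 and LTA at high MYC, and no change with IMP1088 was detectable there for CD80 and PDCD1LG2.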
